A study of Mus musculus with 18 samples.

Results

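The Hippo kinase core was described here through 10 genes, Taok1, Nf2, Wwc2, Stk3, Stk4, Sav1, Mob1a, Mob1b, Lats1 and Lats2. They were chosen by name, as kinases, adaptors and upstream scaffolds of the cascade, with earlier results of these data known. They were taken by gene identifier from the 55335 genes of the deposited counts. All 10 were found, and all 10 passed the filter on low counts at both time points. The counts come from bulk RNA-seq of O9-1 cells, a neural crest (NC) line taken from the heads of early mouse embryos, grown in osteoblast differentiation medium. Every library is of wildtype genotype. Ctrl+vehicle cells received a control siRNA (siCtrl) and no FGF2, Ctrl+FGF2 cells received siCtrl and FGF2 (fibroblast growth factor 2), and Y/T dKD+FGF2 cells received a pair of siRNA pools against Yap and Taz (siY/T) together with FGF2. They are called vehicle, FGF2 and knockdown cells in what follows. Each group has 3 replicates at d2.5 and 3 at d5 of differentiation, 18 libraries in all. No group with siY/T and without FGF2 was analysed here, so the knockdown was read only in the presence of FGF2. The labels enter each day as its own batch, so that day and batch cannot be told apart. The labels also do not say whether replicates were separate cultures, so the p-values measure the spread between these libraries, which may be technical.

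In the Hippo pathway, kinases are arranged in a cascade that ends at the coactivators Yap and Taz. Mst2 and Mst1, encoded by Stk3 and Stk4, bind the scaffold Sav1 and activate Lats1 and Lats2 together with the adaptors Mob1a and Mob1b, and Lats kinases then phosphorylate Yap and Taz, which keeps them out of the nucleus. Nf2 (merlin) and Kibra family proteins such as Wwc2 bring the cascade to the membrane, and Taok1 can phosphorylate Mst kinases. In other cells, Yap and Taz are known to activate Lats2 and Nf2, a negative feedback on their own activity. The cascade works largely by phosphorylation, which RNA counts do not measure.

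The libraries held between 10377151 and 14698525 counts on genes (median 12330911). Levels are given as normalized CPM (read counts brought to a common library size across the 18 libraries), and changes as log2 fold changes of edgeR's quasi-likelihood fit with their standard errors. A gene is called when its p, adjusted over all genes tested by the Benjamini-Hochberg method, is under 0.05. The siRNA targets were lower in the knockdown libraries, where 51.55% of the FGF2 level of Yap1 was left at d2.5 and 46.05% at d5, and 60.8% and 57.5% of that of Wwtr1, which encodes Taz. Against vehicle cells the Wwtr1 level of knockdown cells was not called different at d2.5 (log2 fold change −0.06, adjusted p = 0.122), FGF2 alone having raised Wwtr1 by 0.65 on that day. For the labelled cell type, of 14 NC markers, 10 or 11 reached 1 CPM in each group, among them Twist1, Snai1, Snai2, Tfap2a and Sox9, whereas Sox10 and Foxd3 were at 0 in all 18 libraries and Ngfr stayed under 1 CPM in each of them. The NC markers summed to 754 to 822 CPM at d2.5 with overlapping groups, and at d5 to 703 to 709.6 in vehicle, 615 to 638 in FGF2 and 732 to 769 in knockdown libraries, without overlap. Cd44 made up a large part of these sums, at 230 to 521 CPM over the 18 libraries (median 327), beside a median of 74.3 for Sox9. The order of the sums thus need not hold for the other NC markers. The summed level of 9 osteoblast markers was 34733 to 35182 CPM in vehicle, 15397 to 15719 in FGF2 and 17666 to 18102 in knockdown libraries at d2.5, and 70355 to 73166, 38928 to 42977 and 51639 to 54341 at d5. Most of this sum was Col1a2, Col1a1 and Spp1, with medians over the 18 libraries of 19387, 14146 and 3382 CPM. Runx2, Ibsp, Alpl and Sp7 had medians of 156, 85.6, 76.6 and 38.6 CPM and weigh little in it. Alpl was at 0 in its lowest library. Dmp1 ranged from 1.17 to 1026 CPM (median 32.2) and Bglap from 0 to 3.17 (median 0.423). Of the 9 markers, 8 had a mean of at least 1 CPM in vehicle and 7 in both groups with FGF2 at d2.5. At d5 it was 9, 8 and 9 in vehicle, FGF2 and knockdown cells. Smooth muscle markers, mostly Acta2, summed to 168 to 231 CPM in vehicle, 22.7 to 23.7 in FGF2 and 13.7 to 15.3 in knockdown libraries at d2.5, and to 2032 to 2146, 2674 to 3069.7 and 2111 to 2272 at d5, with Myh11 and Des under 1 CPM throughout. Chondrocyte markers summed to 542 to 764 CPM in vehicle and 40.0 to 49.9 in both groups with FGF2 at d2.5, and to 179 to 351 at d5. Of these 5 markers, 3 had a mean of at least 1 CPM in vehicle, 1 in FGF2 and 2 in knockdown cells at d2.5. Matn1 stayed under 1 CPM throughout. Glial, neuronal, immune and endothelial markers summed to at most 8.06 CPM per list, with Elavl3, Rbfox3 and Cdh5 at 0. The sums of osteoblast, smooth muscle, chondrocyte and, at d5, NC markers thus moved with the day or the group. Their part in the results on the Hippo genes was not tested. In bulk RNA, fewer cells of a type and less RNA per cell cannot be told apart.

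Lats2, Sav1 and Wwc2 were the members that rose most between d2.5 and d5, in knockdown cells too (2.53-fold, 1.87-fold and 1.76-fold). Promoters of the members were read for the core letters bound by TEAD factors, the DNA partners of Yap and Taz. Whether these letters bear on any change with day was not tested. The RefSeq promoter table (GRCm38.p6) holds 250 bases before to 50 after a start entered for a gene, and 11 promoters of 9 of the 10 genes are in it. For Lats2 and Stk4 the entered starts lie inside the gene positions given below, so the outermost start of these genes was not read. The letters GGAATG or their reverse complement CATTCC were in promoters of Lats2, Sav1, Wwc2 and Mob1a, 4 of these 9 genes. They were in promoters of 16.6% of the 27025 genes of the table, and in 14.7% of its 32851 promoters. Of the 4 genes, Mob1a was not higher at d5 in any group (log2 fold changes of −0.03, −0.37 and −0.28 in vehicle, FGF2 and knockdown cells). Windows of 30 bases are shown for these 4 genes, on the gene's own strand, with the motif in capitals and its first base counted from the start (0 is the first base of the transcript).
Lats2, first base at 4, chr14:57746102-57746131, minus strand: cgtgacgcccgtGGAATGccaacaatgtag
Sav1, first base at −106, chr12:69987091-69987120, minus strand: cggctttcccagCATTCCcagcggcgcggg
Wwc2, first base at −203, chr8:47990730-47990759, minus strand: gagcgagctgtgCATTCCtccgccctaccg
Wwc2, first base at −94, chr8:47990621-47990650, minus strand: gggttaagctcaGGAATGtggcggcgagga
Wwc2, first base at −79, chr8:47990606-47990635, minus strand: atgtggcggcgaGGAATGtgcatgcagatg
Mob1a, first base at −209, chr6:83325818-83325847, plus strand: tggccagaatagCATTCCtttaggagaaga
Wwc2 thus carries 3 matches, the last pair of them overlapping in their windows, and the other 3 genes 1 match each. A second promoter of Lats2 held none, nor did those of Lats1, Nf2, Taok1, Stk4 and Mob1b. The AP-1 letters TGANTCA, searched on both strands and found in 7.81% of promoters, were in none of the 11. The ETS letters CCGGAAG or CTTCCGG, found in 8.86%, were in that of Stk4 alone. A missing match says only that these letters are not in that window, and a match describes the letters of these windows and says nothing of binding.

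Levels of different genes were compared per kilobase of exon sequence, pooled over all annotated transcripts of a gene, whether used in these cells or not. The order depends on this length, which was 15033 bases for Mob1b and 4794 for Mob1a. By CPM alone, Mob1b (83.5) stood above Stk3 (63.7), Stk4 (38.1) and Lats2 (28.4) in vehicle cells at d2.5. In vehicle cells at d2.5 the adaptor Mob1a stood highest among the 10 genes at 56.8 ± 1.73 CPM per kb (SD, n = 3), followed by Sav1 at 31.8 ± 0.431. Lats1 (16.1 ± 0.581), Nf2 (15.8 ± 0.508) and Taok1 (15.8 ± 0.743) followed and did not differ beyond their spread. Stk3 (10.4 ± 0.174), Wwc2 (9.38 ± 0.597), Lats2 (7.06 ± 0.418), Stk4 (6.50 ± 0.317) and Mob1b (5.55 ± 0.478) were lowest. In vehicle cells at d5 this order had changed, with Sav1 first at 71.5 ± 3.83 CPM per kb, Mob1a second at 55.8 ± 1.65, and Lats2 at 18.1 ± 0.773, beside Lats1 at 18.1 ± 0.172. For Lats2, 42.4% of its 6971 exon bases are also exon bases of the annotated gene Gm49361 on the same strand. Reads on those bases fit both genes and are counted for neither, and Gm49361 was at 0 counts in every library. The level of Lats2 per kilobase was therefore taken over the 4016 bases it does not share.

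The upstream genes differed more between days than between groups. Gene positions are those of GENCODE M21 (GRCm38). Taok1, a Ste20-family kinase, lies at chr11:77529162-77607815 (minus strand). At d2.5 Taok1 was at 185, 203 and 199 CPM in vehicle, 199, 197 and 189 in FGF2 and 214, 197 and 222 in knockdown libraries, and the 3 groups overlapped. At d5 Taok1 was at 151, 156 and 148 CPM in vehicle, 143, 152 and 143 in FGF2 and 158, 161 and 162 in knockdown libraries. All 9 libraries of d5 lay below all 9 of d2.5, and at d5 the knockdown libraries lay above the other 6. Nf2, the gene of the membrane scaffold merlin, lies at chr11:4765845-4849536 (minus strand). At d2.5 its libraries overlapped, at 108, 111 and 104 CPM in vehicle, 111, 109 and 111 in FGF2 and 111, 105 and 107 in knockdown. At d5 Nf2 was at 126, 138 and 132 CPM in vehicle, 129, 131 and 134 in FGF2 and 149, 139.7 and 151 in knockdown libraries, so that all 9 libraries of d5 lay above all 9 of d2.5, and every knockdown library of d5 stood above every other library. Wwc2 belongs to the Kibra family of scaffolds and lies at chr8:47823959-47990924 (minus strand). Its libraries were at 120.3, 136 and 131 CPM in vehicle, 129, 131 and 133 in FGF2 and 131, 124 and 127 in knockdown at d2.5. They were at 217, 234 and 220.1 CPM in vehicle, 206, 219 and 207 in FGF2 and 221, 221 and 231 in knockdown at d5, each above every library of d2.5.

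Of the Mst kinases, Stk3 moved with FGF2 and Stk4 did not move past the threshold within a day. Stk3 lies at chr15:34875496-35178921 (minus strand). At d2.5 Stk3 was at 63.6, 64.8 and 62.7 CPM in vehicle, 72.4, 70.4 and 70.8 in FGF2 and 78.7, 70.6 and 73.6 in knockdown libraries, with every vehicle library below the other 6. At d5 the order was turned, with 80.9, 75.9 and 76.6 CPM in vehicle, 68.8, 60.7 and 63.8 in FGF2 and 68.6, 73.0 and 75.7 in knockdown, and every vehicle library was above the other 6. Stk4 lies at chr2:164070322-164155524 (plus strand). It was at 37.1, 40.2 and 36.9 CPM in vehicle, 38.0, 38.7 and 36.3 in FGF2 and 40.0, 40.0 and 38.8 in knockdown at d2.5, where no group stood apart from both others. At d5 it was at 51.2, 41.0 and 43.6 CPM in vehicle, 44.2, 41.7 and 44.1 in FGF2 and 42.3, 41.0 and 37.4 in knockdown, and 1 vehicle library at 51.2 CPM was the highest of all. Sav1, the scaffold of the Mst kinases, lies at chr12:69965012-69987002 (minus strand). Its libraries were at 168, 165 and 169.8 CPM in vehicle, 187, 198 and 198 in FGF2 and 211, 197 and 204 in knockdown at d2.5, the vehicle libraries being lowest. At d5 Sav1 was at 360.2, 399 and 369.7 CPM in vehicle, 376, 343 and 356 in FGF2 and 365, 387 and 389.8 in knockdown libraries, each above every library of d2.5, and the 3 groups overlapped.

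The Mob1 adaptors, which bind and activate Lats kinases, were both lowest in FGF2 cells at d5. Mob1a lies at chr6:83326016-83343776 (plus strand) and Mob1b at chr5:88720855-88764220 (plus strand). At d2.5 Mob1a was at 266, 269 and 282 CPM in vehicle, 284, 272 and 283 in FGF2 and 322, 298 and 319.7 in knockdown libraries, with the knockdown libraries highest. At d5 it was at 277, 264 and 262 CPM in vehicle, 215, 215 and 217 in FGF2 and 257, 258 and 259 in knockdown libraries, and the FGF2 libraries lay below both other groups. Every knockdown library of Mob1a lay below every vehicle library on that day. Mob1b was at 76.8, 91.1 and 82.6 CPM in vehicle, 91.7, 83.9 and 90.2 in FGF2 and 99.6, 91.3 and 109.9 in knockdown libraries at d2.5, with overlap between FGF2 and each other group. At d5 Mob1b was at 84.9, 90.0 and 84.1 CPM in vehicle, 72.1, 74.8 and 73.1 in FGF2 and 90.4, 85.8 and 89.3 in knockdown libraries, again with the FGF2 libraries lowest and the other groups overlapping.

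The Lats kinases phosphorylate Yap and Taz directly. Lats1 lies at chr10:7681214-7716460 (plus strand), and Lats2 at chr14:57689662-57758388 (minus strand). At d2.5 Lats1 was at 115, 122 and 115 CPM in vehicle, 137, 133 and 139 in FGF2 and 147, 140.0 and 145 in knockdown libraries, and the 3 groups did not overlap. At d5 Lats1 was at 133, 132 and 131 CPM in vehicle, 118, 121 and 120.2 in FGF2 and 132, 140.0 and 142 in knockdown libraries, with FGF2 lowest. Lats2 had the widest range of the 10 genes. Its libraries were at 27.1, 30.3 and 27.7 CPM in vehicle, 23.0, 23.2 and 22.9 in FGF2 and 22.1, 22.1 and 23.3 in knockdown at d2.5, those of vehicle being highest. At d5 Lats2 was at 73.6, 75.3 and 69.3 CPM in vehicle, 58.7, 65.5 and 64.9 in FGF2 and 55.1, 62.4 and 52.9 in knockdown, again with vehicle highest, and FGF2 and knockdown overlapped.

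**Figure D1:**
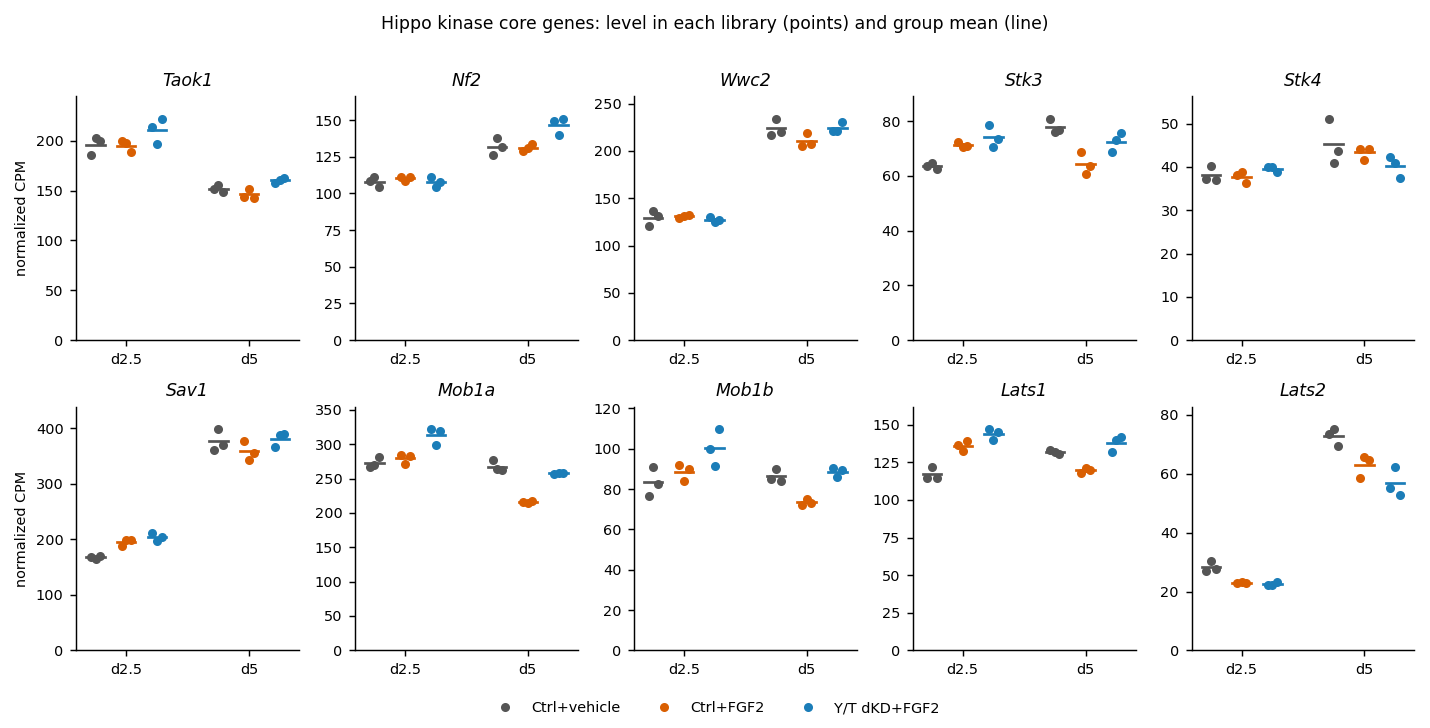
Normalized CPM (linear axes from 0) of the 10 Hippo kinase core genes in each of the 18 libraries (points) with the group mean (line), by group and day. Lats2, Sav1, Wwc2 and Nf2 stand higher in all 9 libraries of d5 than in all 9 of d2.5, Taok1 lower, and in FGF2 cells Mob1a falls from a mean of 279.7 CPM at d2.5 to 216 at d5.

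The day of differentiation was the setting in which the 10 genes differed most. Lats2 was 2.56-fold higher at d5 than at d2.5 in vehicle cells, 2.74-fold in FGF2 and 2.53-fold in knockdown cells. Sav1 was higher by 2.25-fold, 1.84-fold and 1.87-fold, and Wwc2 by 1.73-fold, 1.61-fold and 1.76-fold, in the same order. These 3 genes passed 1.5-fold in each group and were the only ones of the 10 to do so. Of all genes tested, 15.9%, 26.8% and 25.6% were called higher by at least 1.5-fold in the same 3 groups. Taok1 went the other way, with changes of −22.4%, −25.1% and −24.0%.

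In vehicle cells 8 of the 10 genes were called between days, beside 66.4% of the 14198 genes tested. Higher at d5 were 7 (33.1% of all genes), with log2 fold changes of 1.36 (standard error 0.06, adjusted p = 7.2e-18) for Lats2, 1.17 (standard error 0.04, adjusted p = 2.5e-20) for Sav1 and 0.79 (standard error 0.04, adjusted p = 3.6e-16) for Wwc2. Nf2 at 0.29, Stk3 at 0.29, Stk4 at 0.24 and Lats1 at 0.17 made up the other 4, with adjusted p-values between 5.7e-07 and 0.002. The rise of Lats1 was lost with upper-quartile scaling (0.08, adjusted p = 0.0757), which takes the median of all genes from −0.02 to −0.11 in this comparison and also gives smaller values for Stk3 (0.19), Nf2 (0.19) and Stk4 (0.15, adjusted p = 0.05). Stk4 was at 0.15 without vehicle replicate 1 of d5 (adjusted p = 0.0434). Taok1 alone was called lower (33.2% of all genes), at −0.37 (standard error 0.04, adjusted p = 1.8e-08), and Mob1a (−0.03) and Mob1b (0.05) were not called, though Mob1a was called lower with upper-quartile scaling (−0.12) and Mob1b then stood at −0.05. In FGF2 cells all 10 genes were called, as were 80% of all genes. The 5 higher genes (41.2% of all) were Lats2 at 1.46, Sav1 at 0.88, Wwc2 at 0.69, Nf2 at 0.25 and Stk4 at 0.20. The 5 lower genes (38.8% of all) were Taok1 at −0.42 (standard error 0.04, adjusted p = 7.0e-10), Mob1a at −0.37 (standard error 0.04, adjusted p = 1.5e-10), Mob1b at −0.27, Lats1 at −0.19 and Stk3 at −0.15. The call of Stk3 was lost without FGF2 replicate 2 of d5 (adjusted p = 0.102) and that of Stk4 without FGF2 replicate 3 of d2.5 (adjusted p = 0.0552). In knockdown cells 7 genes were called (78.4% of all genes), 4 of them higher (40.3%) and 3 lower (38.1%). Lats2 at 1.34, Sav1 at 0.90, Wwc2 at 0.81 and Nf2 at 0.45 rose, while Taok1 at −0.40, Mob1a at −0.28 and Mob1b at −0.18 fell. The fall of Mob1b was lost without knockdown replicate 3 of d2.5 (adjusted p = 0.0956). Over the 10 genes the median size of the log2 change, whatever its sign, was 0.29 in vehicle, 0.32 in FGF2 and 0.34 in knockdown cells, beside 0.37, 0.64 and 0.61 over all genes tested. Summed osteoblast and smooth muscle markers were also higher at d5 in every group, as given above.

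**Figure D2:**
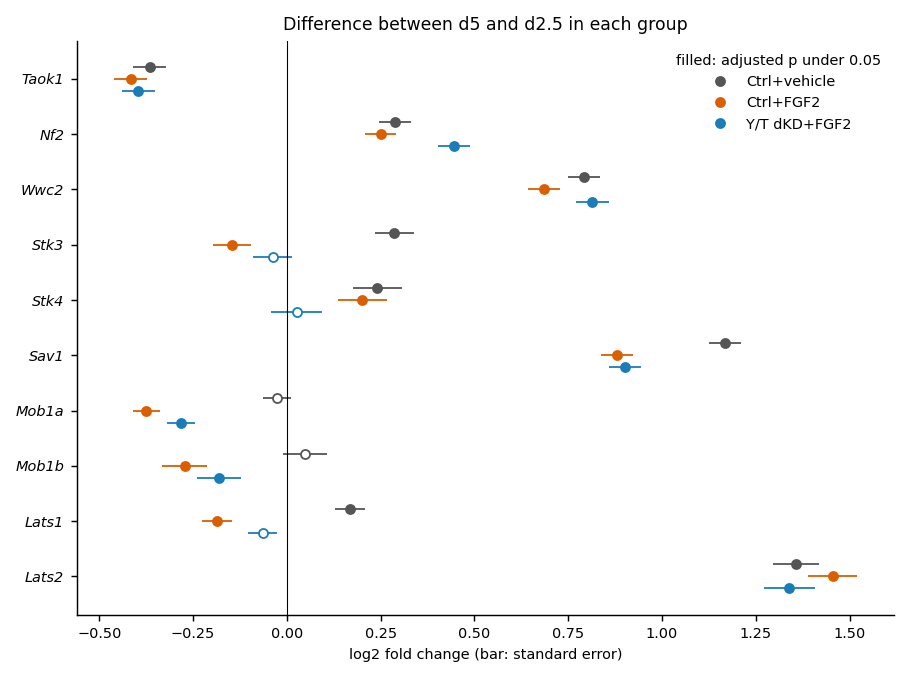
Log2 fold change of d5 against d2.5 (x axis) for each of the 10 genes in vehicle, FGF2 and knockdown cells, with the standard error as bar and filled points for adjusted p under 0.05. Lats2, Sav1 and Wwc2 lie right of 0.58 (1.5-fold) in all 3 groups, and Stk3 and Lats1 lie right of 0 only in vehicle cells.

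FGF2 was compared with vehicle within each day, which asks whether the growth factor moves the RNA of the cascade upstream of Yap. At d2.5 FGF2 raised Lats1 by 15.1%, Sav1 by 15.1% and Stk3 by 10.8%, whereas Lats2 fell by 19.6%. At d5 it raised none of the 10 genes and lowered 5, with changes of −18.6% in Mob1a, −16.5% in Stk3, −14.3% in Mob1b, −12.5% in Lats2 and −8.52% in Lats1. No member changed by as much as 1.5-fold on either day. Lats2 was thus lower with FGF2 on both days, and Lats1 and Stk3 were higher at d2.5 and lower at d5.

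At d2.5, 4 of the 10 genes were called, a smaller share than the 67.6% of all 13677 genes tested. The 3 higher genes (33.5% of all) were Lats1 at 0.20 (standard error 0.04, adjusted p = 2.7e-05), Sav1 at 0.20 (standard error 0.04, adjusted p = 8.8e-06) and Stk3 at 0.15 (standard error 0.05, adjusted p = 0.0051). The lower gene (34.1% of all) was Lats2 at −0.32 (standard error 0.07, adjusted p = 1.3e-04). For these 4 the FGF2 and vehicle libraries did not overlap, and each call was kept in all 9 fits that left out 1 library. With unstranded counts Sav1 was at 0.12 (adjusted p = 0.011). The other 6 genes lay between −0.03 (Stk4) and 0.07 (Mob1b) with overlapping libraries. The median size of the log2 change over the 10 genes, whatever its sign, was 0.05, beside 0.35 over all genes tested, and the signed median 0.02 beside 0.00.

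At d5, 5 of the 10 genes were called, beside 47.2% of 13304 genes tested. All 5 were lower (23.7% of all genes), and none was higher (23.5% of all). Mob1a stood at −0.30 (standard error 0.04, adjusted p = 2.6e-06), Stk3 at −0.26 (standard error 0.05, adjusted p = 7.9e-04) and Mob1b at −0.22 (standard error 0.05, adjusted p = 6.0e-04). Lats2 at −0.19 (standard error 0.06, adjusted p = 0.0162) and Lats1 at −0.13 (standard error 0.04, adjusted p = 0.013) were smaller, and the call of Lats2 was lost without FGF2 replicate 1 (adjusted p = 0.0768). In each of these 5 genes the libraries of the groups did not overlap. Nf2 (0.00), Taok1 (−0.04), Stk4 (−0.05), Sav1 (−0.06) and Wwc2 (−0.08) were not called. The median size of the change over the 10 genes was 0.10, beside 0.22 over all genes, and the signed median −0.10 beside 0.02.

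The FGF2 effects on both days were then tested against each other in a fit of all 18 libraries. The effect at d5 was lower than that at d2.5 in 5 of the 10 genes and higher in none, where 60.9% of all genes were called, 29.1% lower and 31.8% higher. The difference was −0.43 (standard error 0.07, adjusted p = 6.5e-06) for Stk3, −0.36 (standard error 0.06, adjusted p = 2.4e-06) for Lats1 and −0.35 (standard error 0.05, adjusted p = 9.7e-07) for Mob1a on the log2 scale. It was −0.32 (standard error 0.08, adjusted p = 0.0016) for Mob1b and −0.29 (standard error 0.06, adjusted p = 1.3e-04) for Sav1. Lats1 and Stk3 were called in both days with opposite signs, Mob1a and Mob1b only at d5 and Sav1 only at d2.5. The difference of Lats2 was 0.10 (standard error 0.09, adjusted p = 0.369). Omitting any single one of the 18 libraries kept all 5 calls. That of Sav1 was lost when unstranded counts were used (−0.13, adjusted p = 0.103), which held 29332 reads of Sav1 instead of 60735; Atl1 overlaps Sav1 on the other strand. Among marker sums, those of osteoblasts were lower with FGF2 on both days, those of chondrocytes at d2.5 and those of NC cells at d5, and those of smooth muscle were lower with FGF2 at d2.5 and higher at d5.

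The knockdown was compared with FGF2 cells, which asks whether Yap and Taz bear on the RNA of the kinases that act on them. At d2.5 knockdown cells had 11.4% more Mob1a and 12.4% more Mob1b RNA, and no other member passed the threshold. At d5 Mob1b was higher by 20.1%, Mob1a by 19.0%, Lats1 by 14.7%, Stk3 by 11.9%, Nf2 by 11.3% and Taok1 by 9.32%. No member was called lower on either day, Lats2 included. These comparisons share the FGF2 libraries with those of FGF2 against vehicle, so that a low FGF2 level would lower the change with FGF2 and raise that with knockdown.

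At d2.5, 2 of 10 genes were called, beside 24.5% of all genes, both higher (10.8% of all) and none lower (13.6%). Mob1a was at 0.16 (standard error 0.03, adjusted p = 0.00128) on the log2 scale, without overlap of libraries and in all 9 fits that left out 1. Mob1b was at 0.17 (standard error 0.06, adjusted p = 0.0282), with overlap, and its call was lost in 4 of those 9 fits, without FGF2 replicate 2 or 3 or knockdown replicate 1 or 3 (0.10 to 0.18). The 9 fits include those that left out a vehicle library, which is not compared here. Taok1 at 0.10 (standard error 0.04, adjusted p = 0.0631) missed the threshold, which it passed with RLE factors (adjusted p = 0.0429), with upper-quartile factors, under both other filters, with only the 2 groups compared, and without vehicle replicate 1 or 2 or knockdown replicate 2. Lats2 was at −0.04 (standard error 0.07, adjusted p = 0.729) and Nf2 at −0.04 (standard error 0.04, adjusted p = 0.461).

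At d5, 6 of 10 genes were called, beside 31.7% of all genes, and all 6 were higher (15.6% of all genes, with 16.1% lower). Mob1b at 0.26 (standard error 0.05, adjusted p = 2.1e-04), Mob1a at 0.25 (standard error 0.04, adjusted p = 3.2e-05) and Lats1 at 0.20 (standard error 0.04, adjusted p = 8.8e-04) kept their calls in every fit that left out 1 library. Stk3 at 0.16 (standard error 0.06, adjusted p = 0.0316), Nf2 at 0.15 (standard error 0.04, adjusted p = 0.0119) and Taok1 at 0.13 (standard error 0.04, adjusted p = 0.0175) did not. All 3 were lost without knockdown replicate 3 (0.13, 0.14 and 0.12). Stk3 was also lost without knockdown replicate 2 or FGF2 replicate 2 or 3, Nf2 without knockdown replicate 1, and Taok1 without knockdown replicate 2 or FGF2 replicate 1 or 3. With DESeq2, Stk3 and Taok1 missed the threshold (adjusted p = 0.0875 and 0.0515). Lats2 was at −0.15 (standard error 0.06, adjusted p = 0.0762), lower without being called, and was called without FGF2 replicate 1 (adjusted p = 0.0257) or knockdown replicate 2 (adjusted p = 0.0149). The median log2 fold change of the 10 genes was 0.14, beside 0.00 over all genes, and the median size 0.15 beside 0.15. The knockdown effect differed between days in 1 of 10 genes, Nf2, by 0.19 (standard error 0.06, adjusted p = 0.0178), beside 20.9% of all genes (11.6% higher, 9.35% lower). That call was lost in 3 of 18 fits that left out 1 library, without FGF2 replicate 1 of d2.5, knockdown replicate 2 of d2.5 or replicate 3 of d5. The 18 fits include those that left out a vehicle library, which this difference does not compare. Summed osteoblast markers were higher in the knockdown than in FGF2 libraries on both days and NC markers at d5, and smooth muscle markers were lower on both days.

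Knockdown cells were also set against vehicle cells, which does not compare the levels of FGF2 cells but changes FGF2 and Yap/Taz together. The FGF2 libraries stayed in the fit for the filter, the scaling and the spread. At d2.5, 6 genes were called (69.8% of all genes), 5 higher (34.1%) and 1 lower (35.7%). Lats1 was at 0.28 (standard error 0.04, adjusted p = 2.1e-07), Sav1 at 0.26 (standard error 0.04, adjusted p = 1.3e-07) and Mob1b at 0.24 (standard error 0.06, adjusted p = 4.2e-04). Stk3 at 0.20 and Mob1a at 0.18 were also higher, and Lats2 was lower at −0.36 (standard error 0.07, adjusted p = 3.6e-05). Sav1 was at 0.16 with unstranded counts (adjusted p = 0.00153). Taok1 at 0.09 (standard error 0.04, adjusted p = 0.0576) missed the threshold, which it passed without vehicle replicate 2 (0.12, adjusted p = 0.0139) or knockdown replicate 2 (0.14, adjusted p = 0.00383), with RLE factors, with no filter and in the fit of all 18 libraries. At d5, 2 genes were called (41.8% of all), Nf2 higher (20.7% of all) at 0.16 (standard error 0.04, adjusted p = 0.00749) and Lats2 lower (21.1% of all) at −0.35 (standard error 0.06, adjusted p = 2.4e-04). Lats1 (0.07), Stk3 (−0.10), Mob1a (−0.05) and Mob1b (0.04), which were called with FGF2 and with knockdown at d5, were not called between the knockdown and vehicle cells. For Stk3 and Mob1a every knockdown library of d5 still lay below every vehicle library.

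**Figure D3:**
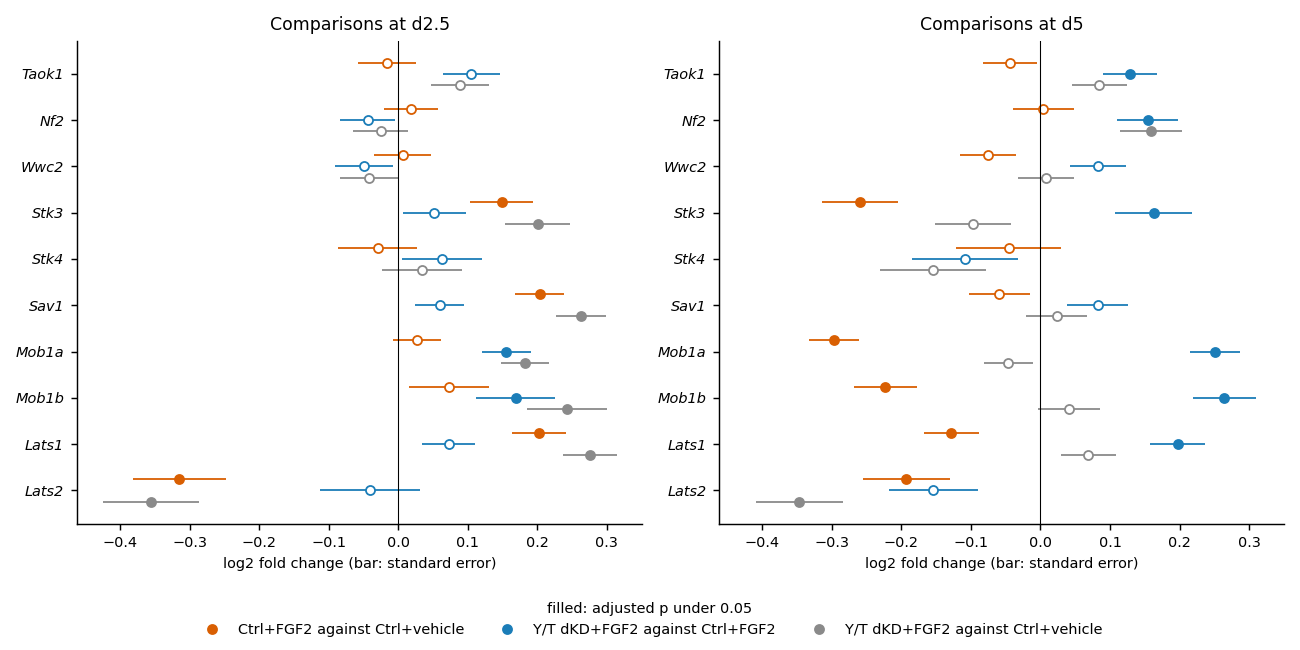
Log2 fold changes of the 10 genes (x axis, bar for the standard error, filled for adjusted p under 0.05) at d2.5 (left) and d5 (right) in 3 comparisons of groups. All called FGF2 changes at d5 lie left of 0 and all called knockdown changes right of 0, the 2 comparisons sharing the FGF2 libraries, and Lats2 lies left of 0 throughout.

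The balance within paralog pairs was read as the log2 ratio of counts inside each library, which does not depend on how libraries are scaled to each other. These ratios were not tested. Lats2 to Lats1 stood at −2.08, −2.01 and −2.05 in the vehicle libraries at d2.5, −2.57, −2.52 and −2.60 in FGF2 and −2.74, −2.66 and −2.64 in knockdown. At d5 it stood at −0.86, −0.81 and −0.92 in vehicle, −1.003, −0.89 and −0.89 in FGF2 and −1.26, −1.17 and −1.42 in knockdown libraries. Lats2 thus gained on Lats1 with time in every group, and within a day the groups did not overlap, apart from vehicle and FGF2 at d5. Per kilobase the mean ratio of Lats2 to Lats1 rose from 0.439 to 1.00 in vehicle, from 0.307 to 0.957 in FGF2 and from 0.284 to 0.749 in knockdown cells. Stk3 to Stk4 stood at 0.78, 0.69 and 0.77 in vehicle, 0.93, 0.86 and 0.96 in FGF2 and 0.98, 0.82 and 0.92 in knockdown at d2.5. At d5 this ratio was 0.66, 0.89 and 0.81 in vehicle, 0.64, 0.54 and 0.53 in FGF2 and 0.70, 0.83 and 1.02 in knockdown libraries. FGF2 libraries were above those of vehicle at d2.5 and below them at d5. Mob1a to Mob1b was steadier, with group means between 1.54 and 1.71 and overlapping groups within each day, so that both Mob1 genes moved by like amounts.

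**Figure D4:**
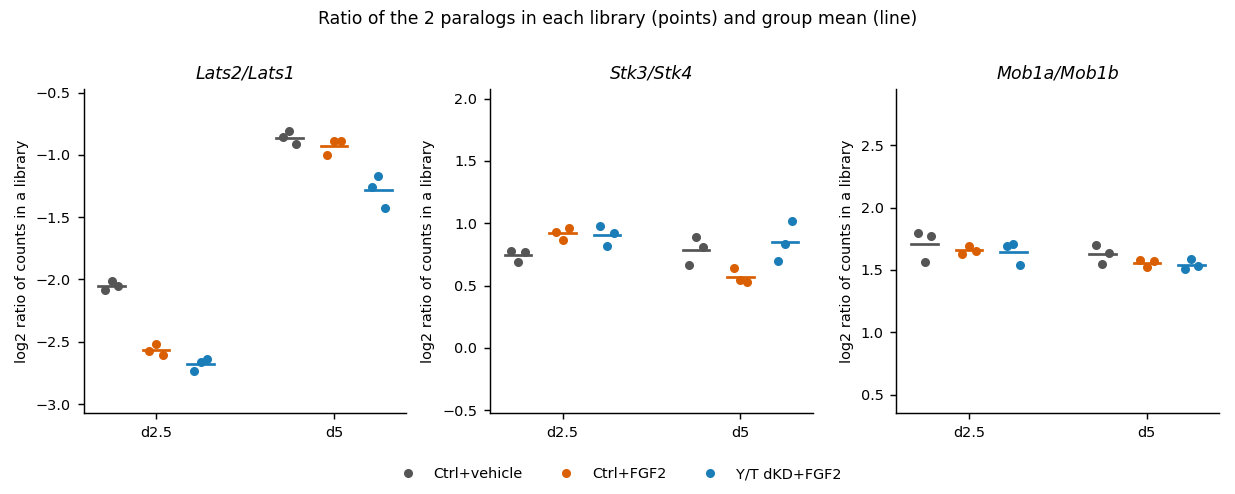
Log2 ratio of the counts of 2 paralogs in each library (points) with the group mean (line), for Lats2/Lats1, Stk3/Stk4 and Mob1a/Mob1b, on y axes of equal span. The mean of Lats2/Lats1 rises from −2.05 to −0.86 in vehicle cells between d2.5 and d5, and Mob1a/Mob1b stays between 1.54 and 1.71.

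The genes whose pattern was most like that of the 3 widest-ranging members were looked up among the 14198 genes tested, by the root mean square difference of centred log2 CPM over the 18 libraries. For Lats2 they included Scpep1 (0.109) and Cyb5a (0.123), for Sav1 they were Pptc7 (0.0861), Tpst1 (0.0910) and Pcdh7 (0.0980), and for Wwc2 Ppfia1 (0.0627), Ccdc117 (0.0714) and Zfp655 (0.0751). Among the 10 genes themselves, Sav1 and Wwc2 were most alike of the pairs that hold one of these 3 members (0.150), while Lats2 differed from Sav1 by 0.307 and from Wwc2 by 0.348.

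Other Hippo genes were counted by list, to be read beside the shares of all genes called that are given above and median log2 fold changes over all genes of 0.00 (FGF2, d2.5), 0.02 (FGF2, d5), 0.00 (knockdown, d2.5) and 0.00 (knockdown, d5). Of 16 further kinases linked to the pathway, all tested at d2.5 and 15 at d5, FGF2 raised 2 and lowered 8 at d2.5 and raised 2 and lowered 5 at d5. Map4k3, which can phosphorylate Lats kinases, had the largest change at d2.5, from 92.5 to 46.2 CPM (log2 fold change −1.01, adjusted p = 1.1e-18). The knockdown raised 2 and lowered 6 of these kinases at d2.5, and raised 6 and lowered 3 at d5, among them Stk11 (−0.46), Tnik (0.43) and Stk38 (0.42). Their median log2 fold changes were −0.12 and −0.02 with FGF2 and −0.01 and 0.05 with the knockdown, at d2.5 and d5. Between days, 6, 7 and 11 of the 16 were higher and 5, 5 and 2 lower in vehicle, FGF2 and knockdown cells.

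Of 9 further scaffolds, cadherins and Mob genes, FGF2 raised 1 and lowered 6 at d2.5, where the list's median was −0.62 on the log2 scale, and raised 3 and lowered 1 at d5, with a median of 0.06. Fat4, a giant cadherin, went from 22.2 to 4.27 CPM with FGF2 at d2.5 (−2.39, adjusted p = 3.8e-19) and from 48.9 to 78.5 at d5 (0.69, adjusted p = 1.4e-07). Its ligand Dchs1 was lower by 1.57 on the log2 scale at d2.5. Wwc1 (Kibra), the paralog of Wwc2, was raised by FGF2 on both days (1.31 and 1.45) and lowered by the knockdown on both (−0.40 and −1.82), where Wwc2 was not called. The knockdown lowered 2 of this list at d2.5, Wwc1 and Fat1, and at d5 lowered Wwc1 and Fat4 and raised Dchs1, with medians of −0.08 and 0.04. Between days 4, 7 and 7 were higher and 1, 0 and 1 lower in the 3 groups, with Frmd6 among the largest at 1.63, 1.67 and 1.76.

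Genes of the STRIPAK complex, a phosphatase complex that counters Mst kinases, were 16 of 19 tested. FGF2 raised 6 and lowered 4 at d2.5 and raised 3 and lowered 6 at d5, and the knockdown raised 4 and lowered 2 and then raised 6 and lowered 1. The largest were Cttnbp2nl (0.77, FGF2 at d2.5), Fgfr1op2 (−0.36, FGF2 at d5) and Sike1 (0.21 and 0.38, knockdown at d2.5 and d5). The medians were 0.03 and −0.07 with FGF2 and 0.05 and 0.06 with the knockdown. Between days 9, 5 and 5 were higher and 5, 8 and 8 lower in the 3 groups. Of 11 inhibitors and turnover factors of Lats, FGF2 raised 4 and lowered 5 at d2.5 and raised 3 and lowered 4 at d5. The ubiquitin ligase Siah2 went from 14.0 to 23.2 CPM at d2.5 (0.72) and from 14.4 to 7.30 at d5 (−0.96). The knockdown raised 2 and lowered 2 of them at d2.5 and raised 1 and lowered 1 at d5, Nedd4l (0.34) and Nedd4 (−0.18). The medians were 0.07 and −0.12 with FGF2 and −0.01 and 0.04 with the knockdown. Between days 5, 6 and 6 were higher and 2, 4 and 4 lower. Of 11 genes that hold Yap in the cytoplasm or mark it for degradation, mainly 14-3-3 proteins and casein kinases, FGF2 raised 5 and lowered 3 at d2.5 and raised 3 and lowered 1 at d5, and the knockdown raised 1 and lowered 3 and then raised 3 and lowered 2. The largest were Ywhae (0.36) and Csnk1e (0.32) with FGF2, and Ywhag (−0.19) and Ywhab (−0.25) with the knockdown. The medians were 0.04 and 0.05 with FGF2 and −0.00084 and 0.03 with the knockdown. Between days 2, 3 and 3 were higher and 6, 5 and 6 lower.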

How the data were processed

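The authors sequenced polyadenylated RNA of O9-1 cells as 18 libraries and deposited raw read counts per gene for each, laid out as STAR writes gene counts. Per the labels, FastQC, STAR, Picard and featureCounts were used on mm10, without versions, and the annotation release is not given in the sources used here. Reads with several places or fitting several genes are not counted. The stranded column that held 96.0% to 96.6% of stranded counts was used. The 27.0% to 34.4% of reads not assigned to a gene, for whatever reason, were left out. Of 55335 identifiers, 55154 matched GENCODE M21.

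Tests used edgeR 4.0.16 under R 4.3.3 (glmQLFTest, TMM, filterByExpr) on these counts, in a fit of 9 libraries per day for groups and of all 18 for days and differences between days. The script was tested on simulated data, with changes planted in a small share of genes. These were larger than any change called between groups for the members, so the test does not bear on calls of that size. The standard error is the absolute log2 fold change over the square root of F. Per-library CPM used the TMM factors of all 18 libraries. No replicate pair agreed within sampling noise (chi-square per degree of freedom 1.25 to 6.41). The members and lists were chosen with earlier results of these data known. Every member is named; of other lists, up to 3 called genes with the largest change per comparison. Alternatives were DESeq2 1.42.0, RLE and upper-quartile factors, no filter, at least 10 counts in every library, unstranded counts, other sets of libraries, a replicate block, stricter thresholds and leaving out each library. Every library of a fit was left out in turn, also those of a group outside the comparison. RefSeq promoters (GRCm38.p6) held no entry for Stk3. A gene among those most like Lats2 is not reported here.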

Additional observations from a re-analysis of the deposited data

Results flagged for a closer look

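The effect of FGF2 differed between d2.5 and d5 in 5 of the 10 genes (edgeR, all 18 libraries). The effect at d5 minus that at d2.5, on the log2 scale, was −0.43 for Stk3, −0.36 for Lats1, −0.35 for Mob1a, −0.32 for Mob1b and −0.29 for Sav1. The effect of the knockdown differed between days in Nf2, by 0.19 (adjusted p = 0.0178), which was lost in 3 of 18 fits that each left out 1 library, vehicle libraries included. Day and batch cannot be told apart in these differences.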

How the results depend on the processing

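The direction and the call of a member changed in few settings. Of its log2 values under alternatives, 2366 kept direction and call, 25 became called, 35 lost the call and 44 changed sign, none of the last being called. Counts of members called stayed within 1.5 times in 234 settings. A threshold of at least 1.5-fold left 3 members in each comparison of days and 0 in the 6 comparisons of groups and in both differences between days. At an adjusted p under 0.01, 1 was left for the knockdown at d2.5, 3 for FGF2 at d5, 3 for the knockdown at d5 and 0 for the knockdown effect between days, which also fell to 0 with no filter on low counts. Leaving out single libraries gave 1 to 3 members for the knockdown at d2.5, 3 to 6 at d5 and 0 to 1 for its effect between days. The cause was not tested.

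Over all genes, a threshold of at least 1.5-fold left 4036 of 9243 calls for FGF2 against vehicle, 276 of 3345 for knockdown against FGF2 and 4309 of 9551 for knockdown against vehicle at d2.5. At d5 it left 1723 of 6278, 1079 of 4220 and 1468 of 5564. Between days it left 4376 of 9421 in vehicle, 7332 of 11358 in FGF2 and 7047 of 11136 in knockdown cells, and 4989 of 8643 and 854 of 2973 for the FGF2 and knockdown effects between days. An adjusted p under 0.01 left 2057 for the knockdown at d2.5 and 1781 for its effect between days.

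Signs turned with upper-quartile factors, which take the median of all genes from −0.02 to −0.11 between days in vehicle cells and from 0.03 to 0.12 for the FGF2 effect between days. They gave −0.01 for Mob1a, −0.02 for Nf2 and −0.03 for Wwc2 (FGF2, d2.5), −0.05 for Mob1b (days, vehicle), 0.05 for Stk4, 0.05 for Nf2 and 0.04 for Taok1 (FGF2 effect between days), and −0.0018 for Sav1 and −0.00079 for Taok1 (knockdown effect between days). Under the same factors Mob1a was called lower at d5 in vehicle cells (−0.12, adjusted p = 0.00311), Lats1 lower at d5 in knockdown cells (−0.09, adjusted p = 0.0284; −0.09 and 0.0414 with at least 10 counts in every library) and Taok1 higher in knockdown than in vehicle cells at d5 (0.10, adjusted p = 0.0386). With at least 10 counts in every library, Wwc2 was at −0.0026 (FGF2, d2.5). For FGF2 at d5, Nf2 was at −0.01 with RLE factors, with DESeq2, with all 18 libraries and with only the 2 groups compared, and at −0.0001 with no filter, and Sav1 was at 0.01 with unstranded counts. For knockdown against vehicle at d5, Wwc2 was at −0.0013 with RLE factors and −0.0014 with DESeq2.

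Over fits that left out 1 library, these uncalled values crossed 0, with their lowest and highest values: for FGF2 at d2.5, Stk4 −0.05 to 0.02, Nf2 −0.01 to 0.04, Wwc2 −0.05 to 0.05 and Taok1 −0.06 to 0.01, and for knockdown against vehicle at d2.5, Nf2 −0.05 to 2.5e-06 and Wwc2 −0.10 to 0.0012. At d5 they were Stk4 −0.12 to 0.05 and Nf2 −0.02 to 0.04 for FGF2, and Sav1 −0.01 to 0.06 and Wwc2 −0.01 to 0.03 for knockdown against vehicle. Between days they were Mob1b −0.02 to 0.12 in vehicle and Stk3 −0.10 to 0.0031 and Stk4 −0.01 to 0.07 in knockdown cells, Stk4 −0.11 to 0.05 for the FGF2 effect, and Sav1 −0.01 to 0.06 and Taok1 −0.04 to 0.06 for the knockdown effect. Beside those of Taok1 and Lats2 given with the results, calls appeared for Mob1b with FGF2 at d2.5 without vehicle replicate 2 (0.15, adjusted p = 0.0171), for knockdown against vehicle in Wwc2 without vehicle replicate 1 of d2.5 (−0.10, adjusted p = 0.0317) and in Stk4 without vehicle replicate 2 of d5 (−0.23, adjusted p = 0.0177), for Lats1 between days in knockdown cells without knockdown replicate 2 of d2.5 (−0.11, adjusted p = 0.0264), and for the FGF2 effect on Wwc2 between days without vehicle replicate 2 of d2.5 (−0.15, adjusted p = 0.0409).

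Deviations of same-numbered libraries from their group means had correlations of −0.0627 to 0.0950, and those of different numbers −0.110 to 0.0742. At d5 the same-numbered values were 0.0856, 0.0950 and 0.0191 between vehicle and FGF2. They were −0.0325, −0.0595 and −0.0165 between FGF2 and knockdown, and −0.0080, −0.0041 and −0.0246 between vehicle and knockdown. Values this weak do not settle whether the numbers pair the libraries. With the replicate number as a block, 7 members were called for the knockdown at d5, Lats2 being added (−0.16, adjusted p = 0.0447), and 6 between days in knockdown cells, Mob1b being lost (−0.16, adjusted p = 0.0678). No other count of members called changed with the block.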
